A study of Mus musculus with 6 samples.

Results

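The enzymes that make and break sphingomyelin and ceramide were followed in LSK cells, sorted from mouse bone marrow for c-Kit and Sca-1 after lineage depletion, a fraction that contains the stem cells of the blood and its early progenitors. The group comprised 10 genes, Sptlc1, Sptlc2, Cers2, Cers5, Cers6, Sgms1, Sgms2, Ugcg, Smpd1 and Asah1, of 18193 genes that had a probe set with a single symbol. A probe set was included when its only gene symbol in the platform annotation was one of these names, which gave 24 probe sets of 45037 that were not controls. For each gene the probe set with the highest mean signal over all arrays was taken as the main one. The 10 genes were selected on the signals of these same arrays, with the deficient against proficient difference of Sgms2 in view, so their genotype difference is described here without a p of its own, and the number of them called is printed once, as a description beside the share called of all probe sets.

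The 3 Ercc1-deficient arrays came from mice with 1 knockout allele and 1 truncated allele of Ercc1 (-/d), and the 3 Ercc1-proficient arrays from litter mates, +/+ in litters 1 and 2 and +/d in litter 3. ERCC1 is a subunit of a nuclease of nucleotide excision and crosslink repair. All mice were F1 animals of a C57BL/6 by FVB/n cross, aged 22 weeks in litter 1 and 20 weeks in litters 2 and 3, and none was treated with an agent according to the labels. The labels name no promoter or Cre that would confine the alleles to blood cells, so the LSK cells developed in animals that carried them elsewhere too. The labels do not say whether an array held 1 mouse or a pool, and p-values therefore refer to these arrays and not to a known number of mice. With litter as a block, they measure the spread between arrays that is left once litter is taken out.

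Sphingolipid synthesis starts when serine palmitoyltransferase joins serine to a fatty acyl chain, and ceramide synthases later attach a second fatty acid to give ceramide. Ceramide is then turned into sphingomyelin, a main lipid of the outer plasma membrane, or into glucosylceramide, the base of the glycosphingolipids. Sphingomyelinases release ceramide again, ceramidases split it to sphingosine, and phosphorylated sphingosine guides blood cells between marrow and circulation.

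The arrays as a whole set limits to these values. No signal lay below 30, the floor of the deposited values, and between 52.3% and 58.6% of the probe sets of an array lay at it. Ercc1 itself measured 79.9, 34.5 and 44.9 in deficient and 128, 244 and 176 in proficient arrays of litters 1, 2 and 3, lower in the deficient litter mate each time. The position of that probe set within Ercc1 was not available, so it checks the labels only in part. Of 8 measured genes that mark the gate and its stem cells, none was at the floor on all arrays, Kit and Cd34 included, and Ly6a, which encodes Sca-1, was not used here. Of the 8, 6 were lower in the deficient mouse of every litter. Of 14 measured genes of granulocytes and macrophages, 10 were higher in the deficient mouse of every litter, and their summed signal ran from 18650 to 116300 in deficient and from 4179 to 36730 in proficient arrays; Itgam was at the floor throughout. Of 5 measured B cell genes 1, Cd79a, was at the floor on all arrays, and the summed signal of the list ran from 255 to 543 in deficient and from 379 to 708 in proficient arrays. Of 7 genes of T and natural killer cells 3, Cd3g, Cd4 and Ncr1, were at the floor on all arrays, whereas Nkg7 and Cd3d were higher in the deficient mouse of every litter. The summed signal of that list ran from 844 to 1480 in deficient and from 432 to 907 in proficient arrays. Most of it on every array was Nkg7 alone, at 594.5, 1211 and 1191 in deficient and 252.2, 653.2 and 721.5 in proficient arrays. Cd3d lay near the floor, at 39.3, 50.6 and 41.9 against 30, 30 and 35.4. The sum is thus mainly a reading of 1 gene. In RNA from a sorted pool, fewer cells of a type and less RNA per cell cannot be told apart.

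The largest genotype difference among the 10 genes was that of Sgms2, which was higher in the deficient mouse of every litter. Sgms2 encodes a sphingomyelin synthase of the plasma membrane and the Golgi. Its main probe set measured 272, 161 and 323 in the deficient arrays of litters 1, 2 and 3, and 30, 79.3 and 49.0 in their proficient litter mates. All deficient arrays lay above all proficient arrays, and the proficient array of litter 1 was at the floor. The means were 252 ± 83.1 (SD, n = 3) and 52.8 ± 24.9 (SD, n = 3). The deficient signal was at least 9.06 times that of the litter mate in litter 1, where the litter mate was at the floor, 2.02 times in litter 2 and 6.59 times in litter 3. On the scale log2(signal + 30), which understates the change of weak genes, the difference averaged 1.76 with an SD of 0.84 over the 3 litters. It was smallest in litter 2, at 0.80, and without that litter it averaged 2.25. The second Sgms2 probe set was at the floor on all arrays but deficient litter 3, where it read 45.0, so it gives no independent reading of the gene.

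Beside the Sgms2 difference stand the granulocyte and stem cell values given above, and technical measures of the arrays. The mean log2 signal of the spike-in controls, added during array preparation, was 12.75, 12.03 and 11.89 in the deficient and 11.57, 11.91 and 11.72 in the proficient arrays of litters 1, 2 and 3, and that of 18S ribosomal RNA was also higher in the deficient mouse each time. The excess of 3′ over 5′ signal of the Gapdh and Actb controls was higher in the deficient array of litter 1 only. The share of probe sets at the floor was higher in the deficient arrays of litters 2 and 3. Of the 14 granulocyte and macrophage genes 7 rose and of the 8 gate genes 3 fell with litter as a block in limma, namely Flt3, Procr and Hlf; without the block limma called no probe set. The part of cell composition and of these array measures in the Sgms2 difference was not tested.

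The other sphingomyelin synthase did not follow it. Sgms1, which makes sphingomyelin in the Golgi, measured 323, 318 and 126 in deficient arrays of litters 1, 2 and 3 by its main probe set, and 474, 282 and 253 in proficient arrays. It was lower in the deficient mouse of litters 1 and 3 and higher in that of litter 2, and the groups overlapped. The difference averaged -0.41 on the log2 scale with an SD of 0.52 over litters. A weaker probe set, 1442079_at, had litter differences of -0.42, -0.28 and -0.66, with both its deficient arrays of litters 2 and 3 at the floor. A further one, 1426576_at, was also lower in all 3 litters, by -1.27, -0.05 and -0.18, and the last Sgms1 probe set was at the floor on all arrays. All 3 Sgms1 probe sets with readings above the floor thus had a negative mean difference, in the direction opposite to Sgms2.

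**Figure D1:**
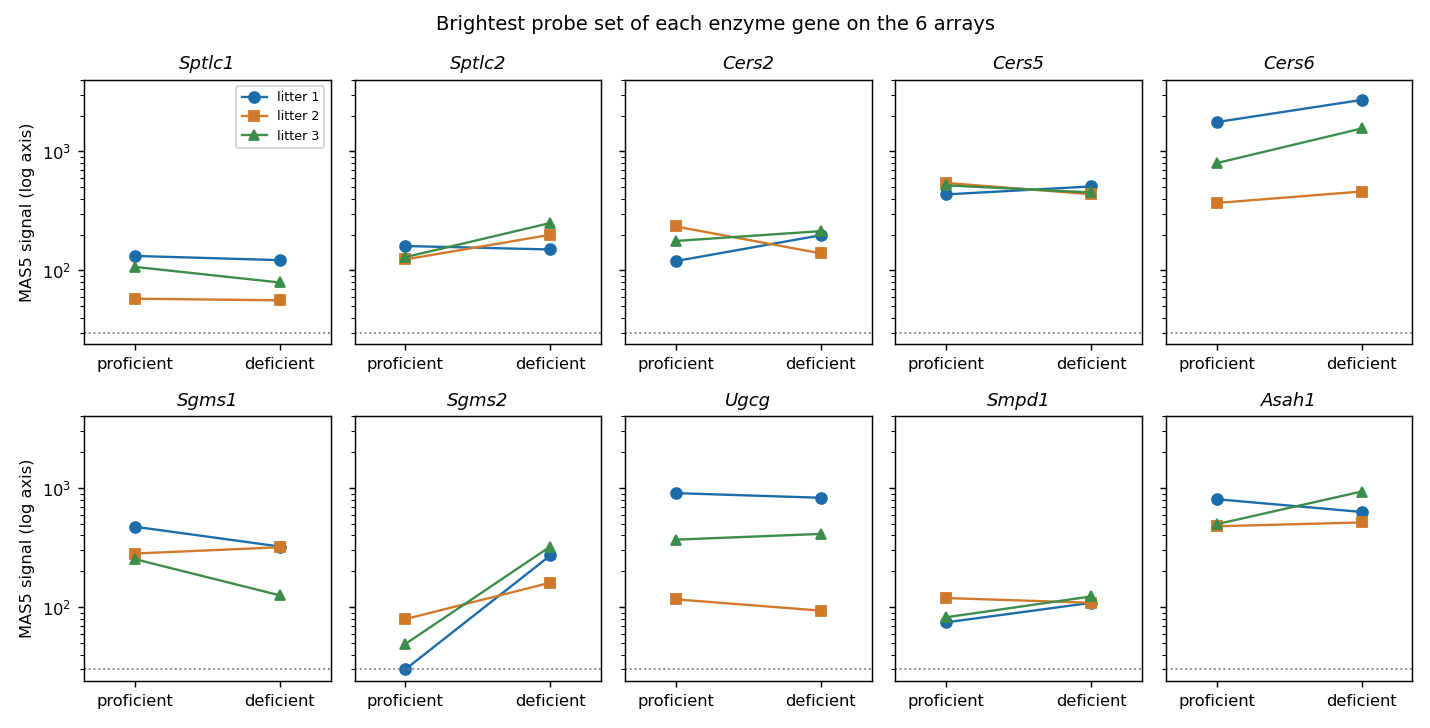
MAS5 signal (log axis) of the main probe set of each of the 10 genes on the 6 arrays; each line joins a proficient array to its deficient litter mate, and the dotted line is the floor of 30. Sgms2 goes from 30, 79.3 and 49.0 to 272, 161 and 323, while the lines of Ugcg and Cers6 lie apart by litter.

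Serine palmitoyltransferase is formed by Sptlc1 together with Sptlc2, which carries the catalytic lysine. Sptlc2 measured 150, 199 and 250 in deficient and 160, 124 and 129 in proficient arrays of litters 1, 2 and 3. The deficient array was higher in litters 2 and 3 and slightly lower in litter 1, and the mean difference was 0.44 on the log2 scale with an SD of 0.46. The other Sptlc2 probe sets had mean differences of 0.05 and 0.17. Sptlc1 measured 122, 56.1 and 79.2 in deficient and 132, 57.9 and 107 in proficient arrays. It was lower in the deficient mouse of every litter, by -0.10, -0.03 and -0.33 on the log2 scale, yet its probe set 1436727_x_at was higher in every litter, by 0.05, 0.17 and 0.14. Probe set 1422690_at, which had no array at the floor, had litter differences of -0.17, 0.14 and -0.19, and 1422691_at was at the floor on 5 arrays. The suffixes _s_at and _x_at mark probe sets with probes shared between transcripts, and the probe sets of Sptlc1 gave no common direction.

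Ceramide synthases differ in the acyl chain they attach: Cers2 prefers very long chains, and Cers5 and Cers6 prefer palmitoyl chains. Cers6 measured 2706, 460 and 1558 in deficient and 1763, 369 and 797 in proficient arrays of litters 1, 2 and 3. It was higher in the deficient mouse of every litter, by 1.53-fold, 1.25-fold and 1.95-fold, although the groups overlapped because the litters lay far apart. The mean difference was 0.62 on the log2 scale with an SD of 0.32. Cers5 measured 508, 436 and 452 in deficient and 435, 543 and 518 in proficient arrays, a mean difference of -0.09 with an SD of 0.27. Cers2 measured 198, 139 and 214 against 120, 234 and 177, higher in the deficient mouse of litters 1 and 3 and lower in that of litter 2. Its mean difference of 0.07 was far below its SD over litters of 0.64. A second Cers5 probe set was at the floor on all arrays.

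Ugcg, the glucosylceramide synthase that opens the glycosphingolipid branch, measured 829, 93.5 and 412 in deficient and 908, 116 and 369 in proficient arrays by its main probe set. Litter mates were close to each other, and the mean difference was -0.07 on the log2 scale with an SD of 0.20, or 0.02 after median centring of the arrays. Its other probe sets had mean differences of -0.24, 0.23 and -0.06, so no direction was shared.

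Neither lysosomal enzyme had the same direction in every litter. Smpd1, the acid sphingomyelinase, measured 109, 109 and 123 in deficient and 74.5, 119 and 82.2 in proficient arrays. The deficient signals were close together and the mean difference was 0.25 with an SD of 0.31, but the second probe set had a mean difference of -0.18. Asah1, the acid ceramidase, measured 630, 515 and 936 in deficient and 807, 478 and 497 in proficient arrays. Its mean difference of 0.21 had an SD of 0.62 and came from litter 3, without which it was -0.12.

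**Figure D2:**
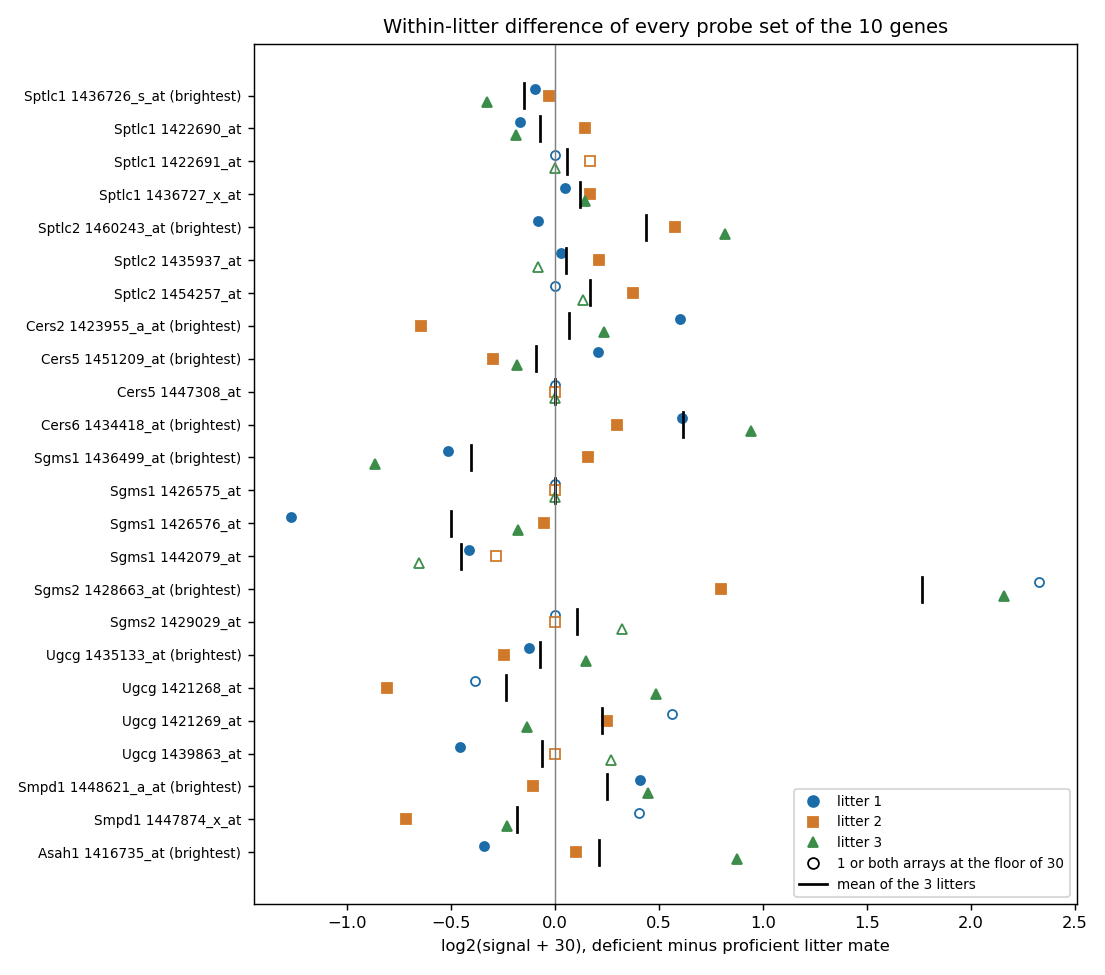
Difference between deficient and proficient litter mates in log2(signal + 30) for all 24 probe sets; symbols are litters, open symbols mark pairs with an array at the floor of 30, and bars are means of the 3 litters. The main Sgms2 probe set stands at 0.80 to 2.33, and the probe sets of Sptlc1, Ugcg and Smpd1 fall on either side of 0.

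Across the 10 main probe sets the median log2 difference was 0.14, against -0.03 over all 22519 probe sets that passed the filter on mean signal, and 6 were positive and 4 negative. All 10 passed that filter, as did 20 of the 24 probe sets. Signals were higher in the deficient mouse of all 3 litters for 2 genes, Sgms2 and Cers6, and lower for 1, Sptlc1; of all probe sets tested, 11.3% were higher and 17.0% lower in all litters. The groups of arrays did not overlap for 1 gene, Sgms2, where 7.19% of all probe sets were without overlap in either direction and 2.30% were higher. With litter as a block, limma called 1 of the 10, Sgms2, at a threshold of 0.05 on the p adjusted over all probe sets tested, and it called 0.835% of all probe sets. Without the block it called 0.00% of all probe sets and none of the 10 genes, and with the block but without litter 1, 2 or 3 it called 0 of them each time. Because the genes were assembled with this comparison known, nothing is read from these counts.

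Litters were compared next, since litter was not the difference in view when the genes were chosen. This comparison was added after the values had been seen, as an F test of the litter terms in the same limma fit. The main probe sets were picked by mean signal on these same arrays, which favours a probe set bright in 1 litter. In litter 2 the main Ugcg probe set read 93.46 and 116.3 in deficient and proficient arrays, below 1421268_at at 129.1 and 248.5. The p-values of the F test are thus not independent of that choice. The F test called 3 of the 10 main probe sets, Ugcg, Cers6 and Sgms1, and 27.1% of all probe sets tested, so the count was near the background. Without litter 1 or litter 2 it called 0 of the 10, and without litter 3 it called Ugcg and Cers6. The difference between the highest and the lowest litter mean was 2.74 on the log2 scale for Ugcg (limma, adjusted p = 1.58e-06), 2.33 for Cers6 (limma, adjusted p = 9.83e-06) and 1.01 for Sgms1 (limma, adjusted p = 0.0328). For Ugcg and Cers6 both arrays of litter 1 were highest, both of litter 3 intermediate and both of litter 2 lowest. At the other end, Cers5 had litter means only 0.05 apart and Sgms2 0.31 apart. Litter means lay further apart than the genotypes for 7 of the 10 genes, and for 86.7% of all probe sets tested. Sgms2, Sptlc2 and Cers5 were the exceptions.

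The Ugcg litter order depended on the probe set. The main probe set, 1435133_at, had its highest signals in litter 1, whereas 1421268_at read 30 and 48.5 in the deficient and proficient arrays of litter 1, 129 and 248 in litter 2 and 156 and 103 in litter 3. Litter 1 was thus the lowest for that probe set, and its litter differences passed as well (limma, adjusted p = 0.00144). Probe set 1421269_at was likewise lowest in litter 1, with the proficient array at the floor, but its litter differences did not pass (limma, adjusted p = 0.0902). Probe set 1439863_at was highest in litter 1 (limma, adjusted p = 0.0355), with 3 arrays at the floor, among them both of litter 2. With the probe sets of a gene averaged, litter differences were called for 1 of the 10 genes, Cers6. For Sgms1, the 3 probe sets with readings above the floor all had their highest litter mean in litter 1.

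Litter 1 was also the oldest, so where it differs from the others, age, litter and any handling shared by litter mates cannot be told apart. Litters 2 and 3 had the same age of 20 weeks. Their mean signals were 104.9 and 390.6 for the main Ugcg probe set and 414.5 and 1178 for Cers6. The mean log2 signal of 18S ribosomal RNA was 7.26 and 7.21 in the deficient and proficient arrays of litter 1, 10.39 and 9.51 in litter 2 and 11.80 and 11.15 in litter 3. The excess of 3′ over 5′ signal of Gapdh, which grows as RNA is degraded or the copies made from it are cut short, was 4.71 and 3.64 log2 units in litter 1 and between 2.30 and 2.99 in the others. The same measure of Actb did not set litter 1 apart: it was 4.97 and 4.05 in litter 1, 4.27 and 4.43 in litter 2 and 3.30 and 3.70 in litter 3. Summed cell markers also varied by litter, given here as deficient and proficient. Summed granulocyte and macrophage signal was 18650 and 4179 in litter 1, 68090 and 23470 in litter 2, and 116300 and 36730 in litter 3. That of the gate genes was 6979 and 8007, 2783 and 3740, and 2817 and 4002. For 5 measured erythroid genes it was 823 and 506.8, 1939 and 3488, and 1377 and 2046. The proficient mouse of litter 3 was +/d. The part of these measures and of cell composition in the litter differences was not tested.

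**Figure D3:**
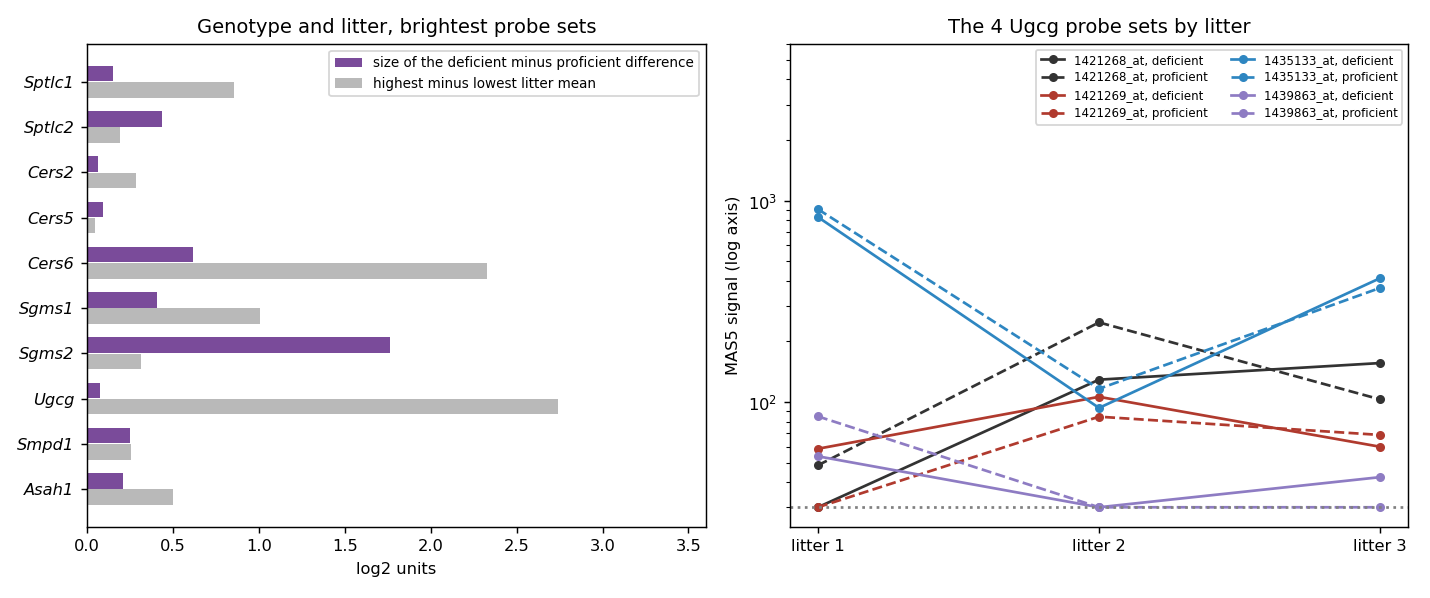
Left, bars give the size of the genotype difference and the distance between the highest and lowest litter means, in log2 units, for the 10 main probe sets. Right, MAS5 signal (log axis) of the 4 Ugcg probe sets by litter, solid for deficient and dashed for proficient arrays; litter 1 is the highest for 1435133_at and the lowest for 1421268_at.

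The rest of the pathway was examined through 62 further genes of sphingolipid metabolism, of which 56 had a probe set of their own and 44 passed the filter. With litter as a block limma called 0 of the 44, and 5 had an unadjusted p under 0.05. That is 11.4% of them, where 11.5% of all probe sets tested had one. Without the block it also called 0. The median log2 difference was -0.01, with 21 positive, 22 negative and Glb1 at 0. The groups of arrays did not overlap for 5 genes, which is 11.4% of the 44, where 7.19% of all probe sets were without overlap in either direction. All 5 were lower in deficient cells, where 4.89% of all probe sets were lower without overlap. These were Cers4, Smpd2, Smpdl3a, Spns2 and S1pr3, of which Cers4 and Smpd2 each had 2 deficient arrays at the floor. A further 10 of the 56 were at the floor on all arrays, among them Sptlc3, Sptssb and Cers3.

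In the remaining steps of ceramide synthesis, 0 of 6 tested genes passed. Cers4, a ceramide synthase, measured 30, 49.2 and 30 in deficient and 53.3, 77.1 and 62.7 in proficient arrays of litters 1, 2 and 3. It differed by -0.51 log2 units (limma, standard error 0.18, adjusted p = 0.252), and both deficient readings at the floor limit it. Kdsr, which reduces the first long-chain base, measured 1930, 1090 and 1865 against 1428, 913 and 1269, a difference of 0.41 (limma, adjusted p = 0.515). Degs1, the desaturase that completes ceramide, measured 356, 498 and 598 against 304, 305 and 470, a difference of 0.40 (limma, adjusted p = 0.519). Both genes were higher in the deficient mouse of all 3 litters and neither passed.

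Among 6 genes of ceramide transfer and related synthases 0 passed. Gltp, a glycolipid transfer protein, measured 3054, 1290 and 3695 in deficient and 2146, 1044 and 2275 in proficient arrays, higher in every litter, with a log2 difference of 0.50 (limma, standard error 0.23, adjusted p = 0.411). Plekha8, another glycolipid transfer protein, had a difference of -0.38 (limma, adjusted p = 0.574). Samd8, a relative of the sphingomyelin synthases that makes ceramide phosphoethanolamine, had one of -0.39 (limma, adjusted p = 0.597). Both were higher in the deficient mouse of 1 litter and lower in the other two.

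Sphingomyelin breakdown outside the lysosomal Smpd1 had 3 tested genes, of which 0 passed. Smpd2, a neutral sphingomyelinase, measured 30, 30 and 49.1 in deficient and 49.5, 55.5 and 123 in proficient arrays. All litters had the lower value in the deficient mouse, with a log2 difference of -0.62 (limma, standard error 0.20, adjusted p = 0.171). Smpdl3a, a relative of acid sphingomyelinase, measured 198, 211 and 214 against 354, 317 and 291, a difference of -0.56 (limma, standard error 0.22, adjusted p = 0.327). Its groups were tight and did not overlap, yet it did not pass. Smpd4, another neutral sphingomyelinase, measured 394, 44.3 and 181 against 209, 90.4 and 104, with no common direction and a difference of 0.26 (limma, adjusted p = 0.756).

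In ceramide breakdown and sphingosine-1-phosphate handling 0 of 14 tested genes passed. Spns2, an exporter of sphingosine-1-phosphate, measured 213, 163 and 119 in deficient and 235, 336 and 238 in proficient arrays. It was lower in the deficient mouse of every litter, with a log2 difference of -0.63 (limma, standard error 0.24, adjusted p = 0.288). S1pr3, a receptor for that lipid, had a difference of -0.30 (limma, adjusted p = 0.670), and Aldh3a2, a fatty aldehyde dehydrogenase that acts on a product of sphingosine-1-phosphate breakdown, one of -0.24 (limma, adjusted p = 0.673). Of the sphingosine kinases, Sphk1 had a mean difference of 0.04, from litter differences of 1.02, -0.69 and -0.22, with proficient litter 1 at the floor. Sphk2 had a mean difference near 0, with signals between 30 and 46.2, close to the floor. Neither mean shows that the gene was unchanged.

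Among 15 tested genes of the glycosphingolipids 0 passed. B4galnt1, a ganglioside synthase, was at the floor in all proficient arrays and measured 30, 43.9 and 60.4 in deficient ones, a log2 difference of 0.30 (limma, adjusted p = 0.494). Gba2, a glucosylceramidase outside the lysosome, had a difference of -0.35 (limma, adjusted p = 0.501). B4galt6, a lactosylceramide synthase, measured 748, 361 and 1248 against 944, 315 and 383, with a difference of 0.49 (limma, standard error 0.28, adjusted p = 0.527) that came mainly from litter 3. A p that misses the threshold does not show that these genes were equal: with 3 arrays a group the standard errors of the genes named here ran up to 0.28 log2 units.

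**Figure D4:**
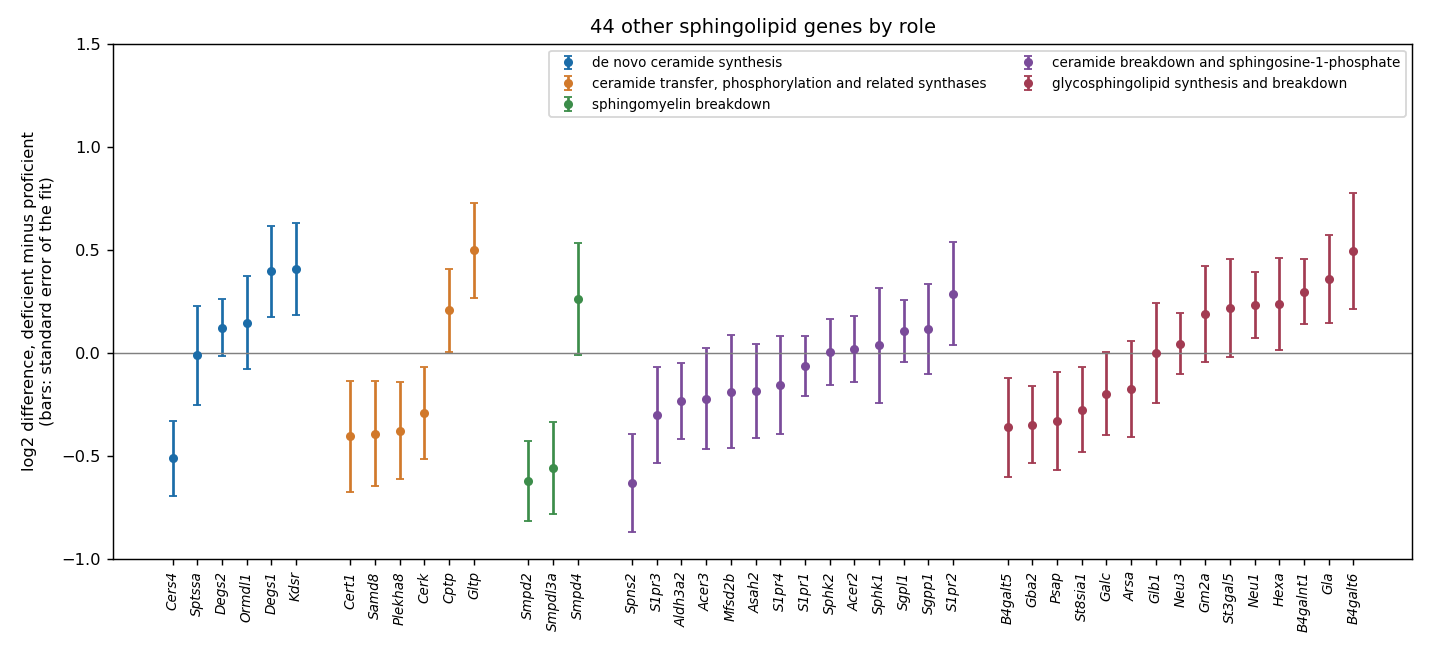
Log2 difference, deficient minus proficient, of the 44 tested sphingolipid genes by role, with the standard error of the fit as bars. The values run from -0.63 for Spns2 to 0.50 for Gltp, on both sides of 0 in every role, and none passed the adjusted threshold.

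The genes most like Sgms2 were sought among 10884 genes with a main probe set that passed the filter. Likeness was measured as the root mean square difference between log2 profiles over the 6 arrays, each centred on its own mean, for which the median over all candidates was 1.02. The closest was Fstl3, an activin-binding protein, at 0.35, followed by the chemokine Ccl9 at 0.36, the myeloid adaptor Pram1 at 0.42, the vesicle coat subunit Ap3s1 at 0.43 and Dram1, a lysosomal membrane protein of autophagy, also at 0.43. Fstl3 measured 138, 123 and 325 in deficient and 43.0, 67.7 and 45.0 in proficient arrays of litters 1, 2 and 3. Dram1 measured 233, 161 and 462 against 68.5, 121 and 141. Each of the 5 had every deficient array above every proficient array. The likeness follows from the genotype difference that they share with Sgms2 and is given as a description, with litter mates entering both sides. Of the other 9 enzyme genes, Smpd1 came nearest at 0.80, in place 447 of the 10884 candidates, followed by Sptlc2, also at 0.80, in place 456. A gene that varies little over the arrays can also score low on this measure, so these places do not show a shared profile. Smpd1 was lower in the deficient array of litter 2, and Sptlc2 in that of litter 1. Ugcg was furthest at 1.51.

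**Figure D5:**
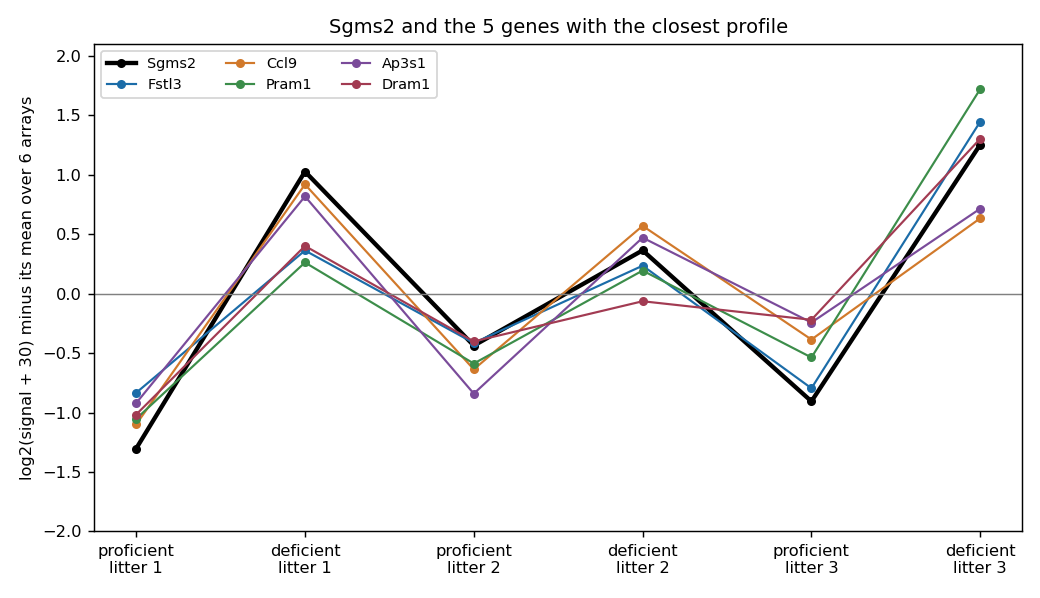
Log2(signal + 30) minus its mean over the 6 arrays for Sgms2 (thick line) and the 5 genes of closest profile. All 6 genes are higher in the deficient array of each litter, with Sgms2 lowest in proficient litter 1 and highest in deficient litter 3.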

How the data were processed

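Each of 6 sorted samples gave RNA that went through 2 rounds of linear amplification before hybridisation on an Affymetrix Mouse Genome 430 2.0 array, as the labels' protocols state. The authors deposited linear signal intensity per probe set, made with MAS5 of unstated version according to the submitters' processing notes. Values lie at or above a floor of 30; how arrays were scaled and the floor set is not stated in those sources. Amplification from the 3′ end and the floor reduce what weak or distant probe sets can show.

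Signals were taken as log2(signal + 30). Apart from 64 control probe sets, the 22519 of 45037 others whose mean signal was at or above the median of 32.6 were tested with limma 3.58.1 in R 4.3.3 (lmFit and eBayes with a variance trend), Benjamini-Hochberg adjustment and a threshold of 0.05. Litter was a block because the labels name arrays of equal number as litter mates; their deviations from the group means correlated with r = 0.77, 0.67 and 0.46 across probe sets in litters 1, 2 and 3, although the deviations of deficient litter 2 and proficient litter 3 also correlated, at 0.28. The fit without the block stands beside.

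Names came from the 2016 platform annotation, for probe sets with a single symbol only; all 10 symbols matched a RefSeq gene table of GRCm38.p6 through Entrez identifiers. Named were the 10 genes with all probe sets, the 3 pathway genes of smallest p in each role, the 5 genes closest to Sgms2, Ercc1 and cell type markers; genes without overlap between groups, genes at the floor and the sphingosine kinases were named after their values were seen. Listed genes without a single-symbol probe set, Ly6a among them, were not used here. The genes and lists were chosen with earlier results of these data known. Alternatives were other normalizations, pseudocounts, filters and variance models, averaged probe sets and litters left out.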

Additional observations from a re-analysis of the deposited data

How the results depend on the processing

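The counts of calls depended on the model and on the number of litters. A fit with a litter left out has fewer arrays and less power, so its count does not show what that litter contributed. The number of probe sets called was 188 with litter as a block, 71 of them higher in deficient cells, and 0 with no replicate block, where 579 had an unadjusted p under 0.05. It was 332 with median centring, 193 of them higher, 114 with no variance trend and 0 without the filter, where 1825 had an unadjusted p under 0.05 and the fit takes in 17046 probe sets at the floor on all arrays. With any 1 litter left out it was 0, with between 1288 and 1705 unadjusted p under 0.05, and Sgms2, whose call describes the difference it was chosen for, was not among the calls either. The count of enzyme genes called was also 0 with no replicate block, 0 without the filter and 0 with the probe sets of a gene averaged; the second Sgms2 probe set is at the floor on 5 arrays. The Sgms2 difference was positive under all 9 alternatives run on it, between 0.94 with averaged probe sets and 2.28 with a pseudocount of 1. With litters left out it ran from 1.48 to 2.25. With a litter left out, another pseudocount or no block the direction could not change, since the difference was positive in every litter. With averaged probe sets it could not change either, since the second Sgms2 probe set was lower in the deficient array of no litter. Nothing is read from the direction in those settings. Litter differences were called for 0 enzyme genes without the filter, 1 with averaged probe sets, and between 0 and 2 with a litter left out, the 2 being Ugcg and Cers6 without litter 3. Among the further sphingolipid genes that were tested the count was 0 under all settings run. With no replicate block, without the filter or with a litter left out no probe set at all was called, so the count could only be 0 there. The sign of the difference changed for Cers2 without litter 1 or litter 3, for Cers5 without litter 2, for Asah1 without litter 3 and for Ugcg without litter 2 or with median centring. The causes of these changes between settings were not tested, also where a value stands beside the change. With 3 arrays a group and a floor of 30, weak probe sets carry little information.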
